A study of Mus musculus with 3 samples.

Results

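Immediate early genes are the genes that a cell transcribes first after a stimulus, before any new protein has been made, and 10 of them were followed here in the blood leukocytes of mice with FGFR1-driven leukemia. The 10 genes were *Fos*, *Fosb*, *Jun*, *Junb*, *Egr1*, *Ier2*, *Dusp1*, *Atf3*, *Zfp36* and *Btg2*. They were taken by symbol from the 32285 features of the count tables, and all 10 were found under 1 identifier each. The rule names genes and uses no measured value, but the list was proposed with earlier results of these data known. scRNA-Seq of peripheral blood (PB) had been run on 3 libraries. One came from naive wild type Balb/C mice, and the others came from wild type Balb/C mice carrying BBC2 SCLL cells at D11 (intermediate disease) and D14 (late disease). BBC2 is a pro-B-like line grown from a leukemia of BCR-FGFR1-transduced stem cells, the hosts were female and 6 to 8 weeks old at engraftment, and all 3 samples went through red cell lysis and dead cell removal. There was 1 library per condition and the number of mice in each was not given in the sources used here, so no value below carries a replicate error, no test was run, and a difference between conditions cannot be told apart from a difference between libraries.

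Signals from growth factors, cytokines, stress or cell handling reach these genes through MAP kinases and calcium, which act on factors already bound at the promoters, such as SRF with its Elk partners and CREB. *Fos*, *Fosb*, *Jun* and *Junb* encode subunits of AP-1, *Atf3* and *Egr1* encode further transcription factors, and *Ier2* encodes a nuclear protein of the same fast response. *Dusp1* (a phosphatase that switches MAP kinases off), *Zfp36* (tristetraprolin, which destabilises cytokine mRNAs) and *Btg2* (an antiproliferative cofactor of mRNA deadenylation) act as brakes. Because dissociation, lysis and warm handling also switch these genes on, their level in blood cells is read as a sign of activation or of sample handling, and the comparison asks which classes carry more of it at which time.

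The promoters differ in the elements they hold close to the start site. Windows of 250 bases upstream of the start were found for 8 of the 10 genes in the RefSeq table of build GRCm38.p6, all but *Egr1* and *Ier2*. They were searched on both strands for the CRE bound by CREB (TGACGTCA), its core (TGACG, which lies within every CRE), AP-1 (TGANTCA), EGR (GCGTGGGCG), TATA (TATAA) and the CArG box of SRF. The CRE core was in 6 of the 8 windows (*Fos*, *Fosb*, *Junb*, *Dusp1*, *Atf3* and *Btg2*) against 17.8% of all 32851 windows of the table, and the full CRE was in *Dusp1* and *Btg2* against 1.55%. Within these windows *Zfp36* alone held a CArG box (1.47% of all windows), *Fos* alone held TATAA (22.8%), and none held the AP-1 (6.75%) or EGR letters (0.536%). Elements further upstream, or with other letters, were outside this search. The 200 bases before the start of *Fos* (chr12:85473690-85473889, plus strand), *Dusp1* (chr17:26508473-26508672, minus strand), *Zfp36* (chr7:28379229-28379428, minus strand) and *Jun* (chr4:95052223-95052422, minus strand) are shown 5′ to 3′, because the first 3 genes followed the mean of the other members over the leukocytes and *Jun* hardly did. *Fosb*, not printed, held the CRE core and hardly followed that mean either. A link between elements and levels was not tested. Capitals mark the CRE core and TATAA in *Fos*, the CRE and its core in *Dusp1* and the CArG box in *Zfp36*, while *Jun* held no match.
Fos promoter: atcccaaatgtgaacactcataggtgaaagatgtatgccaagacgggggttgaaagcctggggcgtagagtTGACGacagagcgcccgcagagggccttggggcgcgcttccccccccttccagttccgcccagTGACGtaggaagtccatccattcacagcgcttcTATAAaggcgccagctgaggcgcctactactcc
Dusp1 promoter: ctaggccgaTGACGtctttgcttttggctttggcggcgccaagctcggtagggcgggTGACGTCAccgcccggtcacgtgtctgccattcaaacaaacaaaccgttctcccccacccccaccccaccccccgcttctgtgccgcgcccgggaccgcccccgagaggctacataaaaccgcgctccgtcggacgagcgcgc
Zfp36 promoter: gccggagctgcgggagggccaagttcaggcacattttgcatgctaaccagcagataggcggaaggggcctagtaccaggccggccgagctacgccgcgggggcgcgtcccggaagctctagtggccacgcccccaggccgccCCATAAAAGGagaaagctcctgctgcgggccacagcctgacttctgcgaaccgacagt
Jun promoter: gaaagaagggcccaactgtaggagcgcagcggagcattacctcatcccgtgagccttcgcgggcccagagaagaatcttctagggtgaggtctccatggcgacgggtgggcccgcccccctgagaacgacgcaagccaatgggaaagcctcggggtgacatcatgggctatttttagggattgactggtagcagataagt

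The libraries held 5386, 8536 and 9337 barcodes in naive, D11 and D14, of which 3811, 4567 and 4414 were kept (200 or more genes, no more than 10% of UMIs from mitochondrial genes). Each kept barcode was placed in a class by UMIs of at least 3 markers of 1 list, giving ncMono-like, cMono-like, neutrophil-like, B-like, T-like, NK-like and pro-B-like cells, written below by the short names. Barcodes of 20% or more hemoglobin UMIs were set apart as erythroid, and between 2.57% and 3.76% of barcodes passed no list. The classes held 122, 179 and 606 ncMonos, 123, 200 and 99 cMonos, 1336, 1631 and 1318 neutrophils, 384, 243 and 40 B cells, 1269, 268 and 101 T cells and 200, 195 and 55 NK cells in naive, D11 and D14. Pro-B cells, the phenotype of the BBC2 line, numbered 1, 92 and 707. Of markers not used for the gates, S100a8, S100a9, Trem1 and Clec4d were highest in the neutrophils and Cx3cr1 and Spn in the ncMonos in every library, while Csf1r of the cMono check list was higher in ncMonos and Ifi27l2a was higher in T cells at D14, so that the cMono name rests on its gate and on Plac8. Libraries shared only 3 to 5 kept barcodes pairwise. Levels are CPM, the UMIs of a gene over all UMIs of the class in that library, scaled to 1000000, and 95% intervals are exact and cover counting error only. The 3′ assay counts a transcript once whatever its length, so levels of different genes can be set side by side.

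As a share of the UMIs of a class, immediate early RNA was by far highest in neutrophils, then in monocytes, and lowest in lymphocytes and pro-B cells. This is an order of shares and not of RNA per cell. Median UMIs per cell in naive were 3424 in neutrophils, 12656 in cMonos and 8949 in T cells. The 10 genes together made up 8031 CPM of the naive neutrophil sum (95% interval 7952 to 8112), 3340 CPM in naive cMonos (3250 to 3432), 2209 CPM in ncMonos (2117 to 2304), 1088 CPM in NK cells (1038 to 1141), 753 CPM in B cells (719 to 788) and 714 CPM in T cells (698 to 729). B and T cells were the only neighbours in this order whose intervals overlapped. Naive neutrophils thus stood 11.3-fold over T cells and 3.64-fold over ncMonos. At D14 these folds were 5.17 and 2.57, since the neutrophil sum was 8766 CPM at D11 and 5954 CPM at D14 while the T cell sum was 1020 and 1152 CPM. The plot of summed levels shows the myeloid classes flat or lower at D14 and the lymphoid classes higher.

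**Figure D1:**
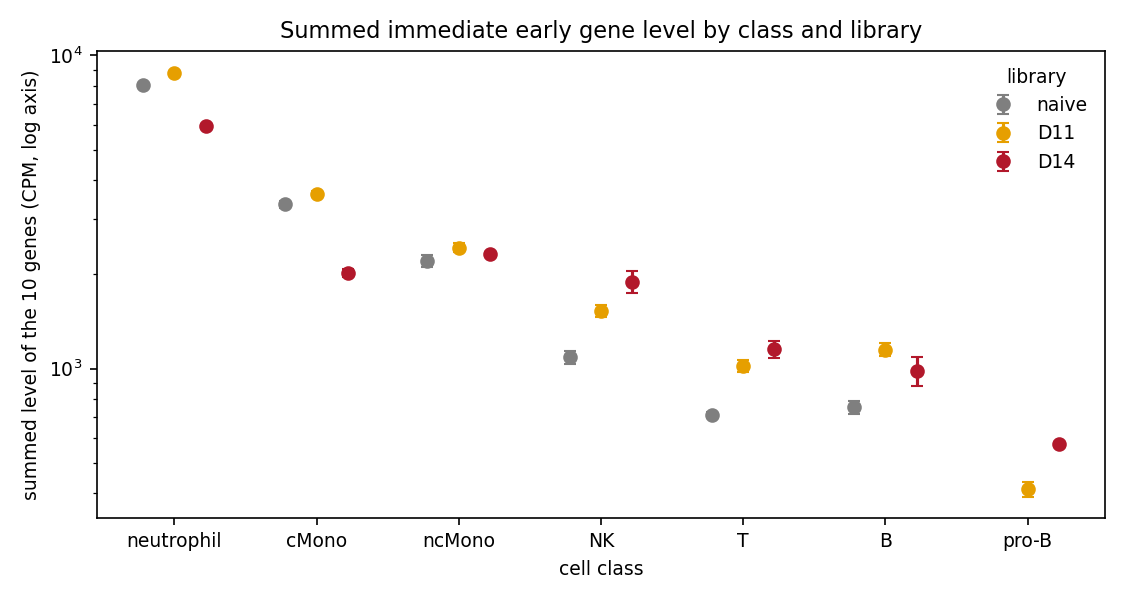
Summed level of the 10 immediate early genes (CPM, log axis) by cell class in naive (grey), D11 (orange) and D14 (red); bars are exact Poisson 95% intervals, some smaller than the point. Neutrophils lie between 5954 and 8766 CPM, T cells between 714 and 1152 CPM, and pro-B cells, drawn for D11 and D14 only, at 413 and 575 CPM.

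The classes also differed in which genes made up the sum. *Junb* (2592, 2621 and 1715 CPM in naive, D11 and D14) and *Dusp1* (1820, 2247 and 1319 CPM) led in neutrophils, followed by *Fos* (1221, 1151 and 689.5 CPM). *Fos* led in naive cMonos at 968 CPM, *Dusp1* in naive ncMonos at 448 CPM, and *Btg2* in naive T, NK and B cells at 190, 269 and 200 CPM. *Egr1* was a neutrophil gene at 144, 149 and 145 CPM and did not exceed 23.8 CPM in any other class. In naive, *Atf3* was highest in myeloid cells, at 207 CPM in neutrophils, 248 CPM in cMonos and 121 CPM in ncMonos against 0.348 CPM (4 UMIs) in naive T cells, and naive NK cells held 0 UMIs of it (95% interval 0 to 2.31 CPM). At D14 the 40 B cells read 43.9 CPM of *Atf3* (24.6 to 72.5), above neutrophils (24.7 CPM) and ncMonos (35.9 CPM). This reading came from 15 UMIs in 3 cells, 12 of them in 1 cell, so it does not show another order of the classes. Over the leukocyte classes, erythroid and pro-B cells left aside, *Jun* and *Fosb* had another order, with *Jun* lowest in naive neutrophils (95.3 CPM, beside 96.7 CPM in naive B cells) and highest in D11 cMonos (516 CPM), and *Fosb* between 26.4 CPM in D14 ncMonos and 212 CPM in D11 cMonos.

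**Figure D2:**
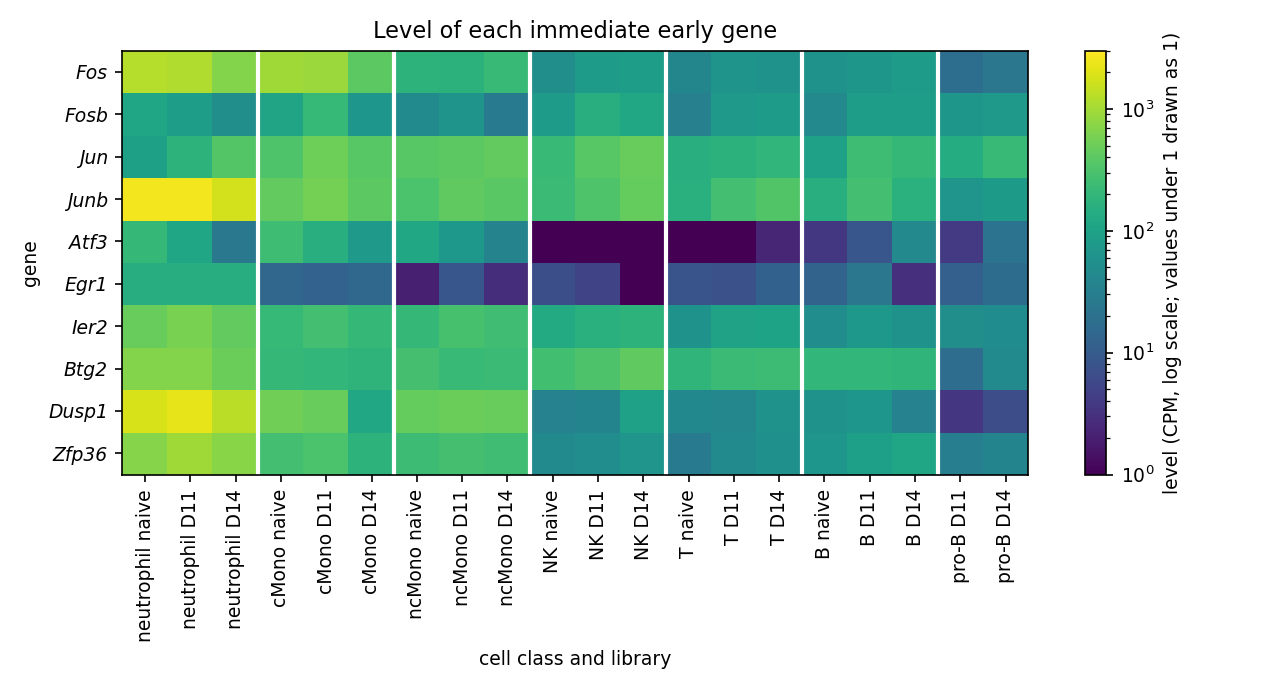
Level of each of the 10 genes (rows, CPM on a log colour scale) in each class and library (columns). Junb, Dusp1 and Fos are brightest in neutrophils, Atf3 is dark in T and NK cells, and Jun is dimmest in naive neutrophils.

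Over the 17 class and library sums of at least 50 cells of the 6 leukocyte classes, the log2 level of *Zfp36* (Pearson r = 0.96), *Fos* (0.94), *Dusp1* (0.93), *Ier2* (0.92) and *Junb* (0.89) followed the mean of the other 9 genes, *Atf3* (0.77), *Egr1* (0.65) and *Btg2* (0.60) less so, and *Fosb* (0.20) and *Jun* (0.08) hardly. These are descriptions over sums that share libraries and, for a class, much of their make-up. The genes outside the lists with the profile most like the mean of the 10 were *Csnk1e* (r = 0.97, a casein kinase), *Csf3r* (0.97, the G-CSF receptor and a marker used for the neutrophil gate), *Gabarap* (0.97, an autophagy protein), *Evi2* (0.96), *Smim3* (0.96), *Pi16* (0.96), *Ppt1* (0.96, a lysosomal thioesterase), *Tnfaip2* (0.96), *Ptafr* (0.96, the receptor for platelet activating factor) and *Mid1ip1* (0.96), out of 6159 candidates. All 10 peaked in a neutrophil sum.

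In neutrophils the sum was little higher at D11 and lower at D14, with log2 ratios to naive of 0.13 (0.11 to 0.15) and -0.43 (-0.45 to -0.41), and single genes went opposite ways. *Jun* read 95.3, 174 and 351 CPM in naive, D11 and D14, a D14 over naive log2 ratio of 1.88 (1.73 to 2.03), whereas *Atf3* read 207, 111 and 24.7 CPM, a log2 ratio of -3.07 (-3.32 to -2.82), and *Fosb* 112, 86.4 and 52.3 CPM, a log2 ratio of -1.10 (-1.31 to -0.90). All 3 were seen in a minority of cells. *Jun* had UMIs in 147 of 1336, 271 of 1631 and 508 of 1318 neutrophils, *Atf3* in 505, 362 and 99, and *Fosb* in 339, 347 and 183. *Fos* and *Junb* were lower at D14 by less, at -0.82 (-0.88 to -0.77) and -0.60 (-0.63 to -0.56). *Egr1* at 0.01 (-0.14 to 0.15) and *Zfp36* at 0.03 (-0.03 to 0.10) did not differ beyond counting error. Past 2-fold on CPM plus 1, counted over genes whose mean over the libraries reached 50 CPM, 0 of 10 members were higher and 0 lower at D11, where 2.03% and 0.641% of all 2807 genes were. At D14, 1 was higher (*Jun*) and 2 were lower (*Atf3* and *Fosb*), where 6.41% and 7.84% of all genes were. *Atf3* reached the minimum of 50 CPM only through naive and D11, where it was high. Its place in the count is no support for a difference.

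The neutrophil values moved with the make-up of the class. Immature neutrophils, those with at least 3 of Ltf, Camp, Ngp, Fcnb, Cebpe and Chil3, were 1.20%, 8.03% and 24.7% of neutrophils in naive, D11 and D14. Their member sum was 3704 CPM at D11 and 3674 CPM at D14 against 9810 and 7670 CPM in mature neutrophils of the same libraries. Within mature neutrophils the D14 over naive log2 ratio of the sum was -0.11 (-0.13 to -0.09), and that at D11 0.25 (0.23 to 0.27). *Fosb* was then -0.78 (-1.01 to -0.56) and no longer past 2-fold, *Fos* was -0.42 (-0.48 to -0.36), and *Junb* was -0.22 (-0.26 to -0.18). *Jun* at 1.78 (1.62 to 1.94) and *Atf3* at -2.46 (-2.73 to -2.20) stayed past 2-fold in mature cells. *Jun* was also higher in immature cells at D14 than at D11, by 0.87 (0.66 to 1.09), and *Atf3* lower, by -1.55 (-2.61 to -0.51). The median share of mitochondrial UMIs in neutrophils read 0.202%, 0.249% and 0.942%. Its part in the result was not tested.

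**Figure D3:**
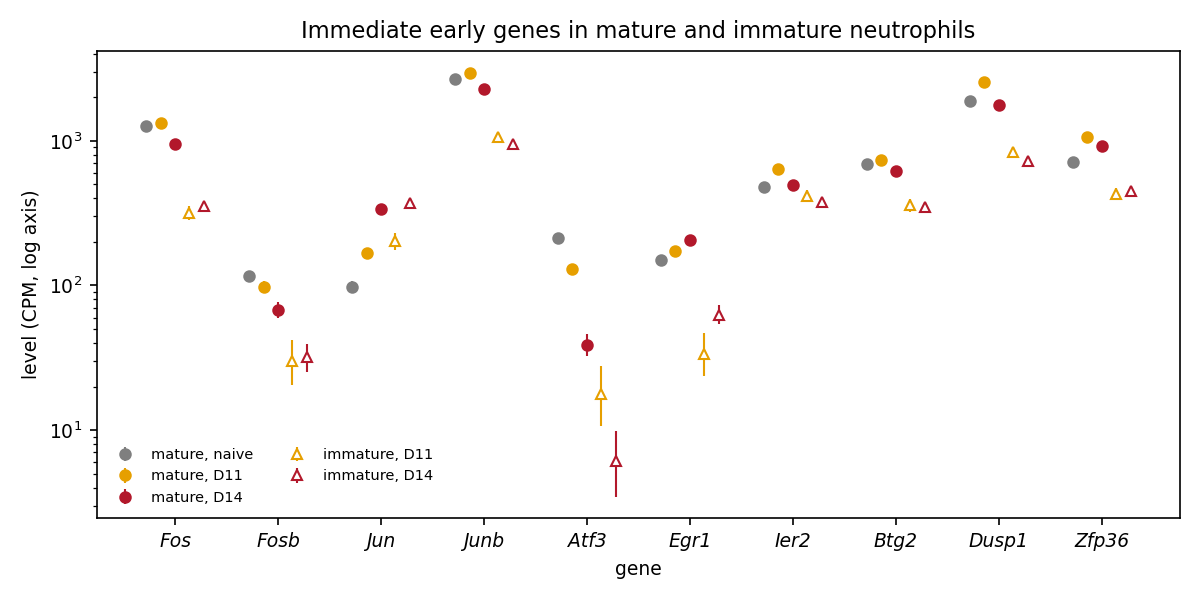
Level of each gene (CPM, log axis) in mature (filled circles) and immature (open triangles) neutrophils, coloured by library, with exact Poisson 95% intervals; the 16 immature cells of naive are not drawn. All but Jun are lower in immature than in mature cells of the same library, Jun is higher, and Atf3 goes from 214 to 38.8 CPM between naive and D14 in mature cells.

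Classical monocytes had about the naive sum at D11 and a lower one at D14. Summed over the 10 genes they read 3340, 3602 and 2015 CPM, so that the D11 log2 ratio to naive was 0.11 (0.06 to 0.16) and the D14 one -0.73 (-0.79 to -0.67). *Dusp1* read 535, 465 and 117 CPM, a D14 log2 ratio of -2.20 (-2.40 to -1.99). *Atf3* read 248, 154 and 76.2 CPM, a ratio of -1.70 (-1.97 to -1.44), and *Fos* read 968, 899 and 404 CPM, a ratio of -1.26 (-1.38 to -1.14). Of these genes, a MAP kinase brake, a stress factor and an AP-1 subunit, *Dusp1* (-0.20, -0.33 to -0.07) and *Fos* (-0.11, -0.20 to -0.01) were close to naive at D11, and *Atf3* (-0.68, -0.89 to -0.48) was already lower. *Fosb* differed, with 108, 212 and 66.7 CPM, so that it was near 2-fold higher at D11 (0.97, 0.72 to 1.23) and below naive at D14 (-0.69, -1.02 to -0.37). *Jun*, *Junb*, *Ier2*, *Egr1* and *Btg2* had D14 intervals that held 0, and *Zfp36* was lower by less than 2-fold (-0.62, -0.82 to -0.42). None of the 9 members that passed the level minimum was past 2-fold at D11, where 0.789% of all 3547 genes were higher and 0.479% lower. At D14 none was higher and 3 were lower, where 2.96% and 3.33% of all genes were.

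Other RNA moved with the cMono result. Neutrophil check markers (S100a8, S100a9, Trem1 and Clec4d, none at 0) summed to 132, 2057 and 7913 CPM in cMonos, which is 0.141%, 1.58% and 4.97% of their level in neutrophils. The same percentage of the neutrophil member sum is 11.3, 139 and 296 CPM. Another gate was passed, with far fewer UMIs, by 56 of 123, 106 of 200 and 77 of 99 cMonos, mostly that of neutrophils. The ncMono gate was passed by 13, 38 and 35 of them and the progenitor gate by 1, 4 and 15. The level at D14 was as low in the 22 cells that passed the cMono gate alone, with *Dusp1* at 82.5 CPM (55.6 to 118) against 522 CPM (471 to 577) in the 67 such cells of naive, *Fos* at 346 CPM (288 to 412) against 935 CPM (867 to 1007), and *Atf3* at 60.5 CPM (37.9 to 91.5) against 247 CPM (212 to 285). The median UMIs per cMono were 12656, 13207 and 21462, and the median share of mitochondrial UMIs was 2.26%, 2.22% and 3.35%. At D14, 1980 barcodes exceeded the mitochondrial limit, against 763 in naive and 784 at D11. The part of neutrophil RNA, depth and RNA quality in the result was not tested.

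Nonclassical monocytes had a near constant sum on CPM. They read 2209, 2430 and 2319 CPM, so that the D11 log2 ratio to naive was 0.14 (0.06 to 0.21) and the D14 one 0.07 (0.00 to 0.14). The latter took the opposite sign, -0.0026, when barcodes of several gates were given to the gate with the most UMIs, and the D11 one was then 0.26. With TMM normalization factors the ratios were 0.23 at D11 and 0.29 at D14, both above the counting intervals. *Atf3* was the exception, with 121, 71.2 and 35.9 CPM, ratios of -0.77 (-1.16 to -0.38) and -1.75 (-2.08 to -1.42). *Fosb* read 45.8, 62.6 and 26.4 CPM, a D14 ratio of -0.79 (-1.28 to -0.28), under the level minimum as a mean over libraries. *Fos* (0.35, 0.12 to 0.59), *Junb* (0.34, 0.16 to 0.52) and *Ier2* (0.28, 0.07 to 0.49) were slightly higher at D14. *Btg2* was slightly lower at both times, at -0.30 (-0.54 to -0.07) and -0.26 (-0.45 to -0.07), and *Dusp1* (0.05, -0.10 to 0.20) and *Zfp36* (0.06, -0.14 to 0.26) did not differ at D14 beyond counting error. Of 8 members tested, 0 were past 2-fold in either direction at D11, where 1.28% of all 3680 genes were higher and 0.707% lower. At D14, 0 were higher and 1, *Atf3*, was lower, where 3.26% and 1.96% of all genes were. *Atf3* was thus past 2-fold lower at D14 in all 3 myeloid classes, and its D11 level lay between naive and D14 in each. These ratios share the naive library, as do all D11 and D14 ratios to naive here. At D14 *Atf3* was under the minimum of 50 CPM in ncMonos (35.9 CPM) and neutrophils (24.7 CPM). It passed there only through naive and D11, where it was high, so its places in those counts are no support for a difference.

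T cells and NK cells had more of these transcripts at both times. T cells read 714, 1020 and 1152 CPM over the 10 genes, log2 ratios of 0.52 (0.44 to 0.59) and 0.69 (0.59 to 0.79), and all 10 members read above naive at D14, *Egr1* and *Atf3* with intervals that held 0. *Junb* read 159, 278 and 343 CPM, a D14 ratio of 1.11 (0.93 to 1.29). *Fosb* read 33.0, 74.6 and 82.2 CPM, a ratio of 1.32 (0.93 to 1.69). *Zfp36* (0.95, 0.47 to 1.40), *Ier2* (0.73, 0.39 to 1.06) and *Fos* (0.65, 0.21 to 1.06) were higher by less than 2-fold, and *Jun* (0.33, 0.09 to 0.57) and *Btg2* (0.35, 0.13 to 0.56) by little. At D11, 1 of the 6 members tested was past 2-fold higher (*Fosb*) and 0 lower, where 3.39% and 0.526% of all 3425 genes were. At D14, 2 were higher (*Fosb* and *Junb*) and 0 lower, where 4.5% and 1.02% were. *Fosb*, at 33.0 CPM in naive, reached the minimum of 50 CPM only through D11 and D14, so its place in these counts is no support for a difference.

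Both main T cell subsets were higher at D11. CD4 T cells read 746 CPM in naive and 1042 CPM at D11, and CD8 T cells read 600.1 and 910 CPM. At D14 these subsets held 48 and 28 cells, at 1191 and 960 CPM, too few cells for a ratio under the minimum of 50. Other markers moved with the T cell result. The NK check markers (Nkg7, Ccl5, Il2rb and Klrd1, none at 0) summed to 339, 1153 and 1301 CPM in T cells, and the pro-B check markers (Ebf1, Cd79a, Sox4 and Lef1, of which Lef1 is also a T cell gene, none at 0) to 1906, 1173 and 1059 CPM. Their part in the result was not tested.

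NK cells read 1088, 1528 and 1891 CPM, log2 ratios of 0.49 (0.39 to 0.59) and 0.80 (0.66 to 0.93). *Jun* read 225, 376 and 462 CPM, a D14 ratio of 1.04 (0.76 to 1.31), and *Dusp1* read 34.5, 36.9 and 97.1 CPM, a ratio of 1.49 (0.82 to 2.14), on 55, 43 and 33 UMIs. *Junb* (0.95, 0.67 to 1.22), *Fos* (0.76, 0.11 to 1.38) and *Btg2* (0.65, 0.36 to 0.92) were higher without passing 2-fold, and *Egr1* and *Atf3* were at 0 UMIs at D14. Of 8 members tested, 0 were past 2-fold at D11 in either direction, where 0.272% of all 3679 genes were higher and 0.299% lower. At D14, 2 were higher (*Jun* and *Dusp1*) and 0 lower, where 1.96% and 1.33% were. *Dusp1* reached the minimum only through D14, the library in which it was high, so it had to differ and its place in the count is no support.

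B cells could be compared with naive at D11 only, since 40 remained at D14. They read 753 and 1149 CPM, a log2 ratio of 0.61 (0.52 to 0.71), led by *Jun* (96.7 and 253 CPM, a ratio of 1.39, 1.15 to 1.63) and *Fosb* (43.1 and 87.9 CPM, 1.03, 0.65 to 1.41), while *Btg2* was level (200 CPM in both, -0.01, -0.22 to 0.20). These 2 of 8 members were past 2-fold higher and 0 lower, where 0.759% and 0.263% of all 3424 genes were. *Fosb* reached the minimum only through D11, where it was high, so that its place in the count is no support. The 40 cells of D14 read 981 CPM (879 to 1092).

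Neutrophil RNA in lymphocyte barcodes was also higher in the leukemic libraries. The neutrophil check markers in T cells summed to 65.0, 116 and 329 CPM and in NK cells to 67.1, 129 and 615 CPM, which is at most 0.386% of their level in the neutrophils of the same library. Its part in the lymphocyte values was not tested.

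**Figure D4:**
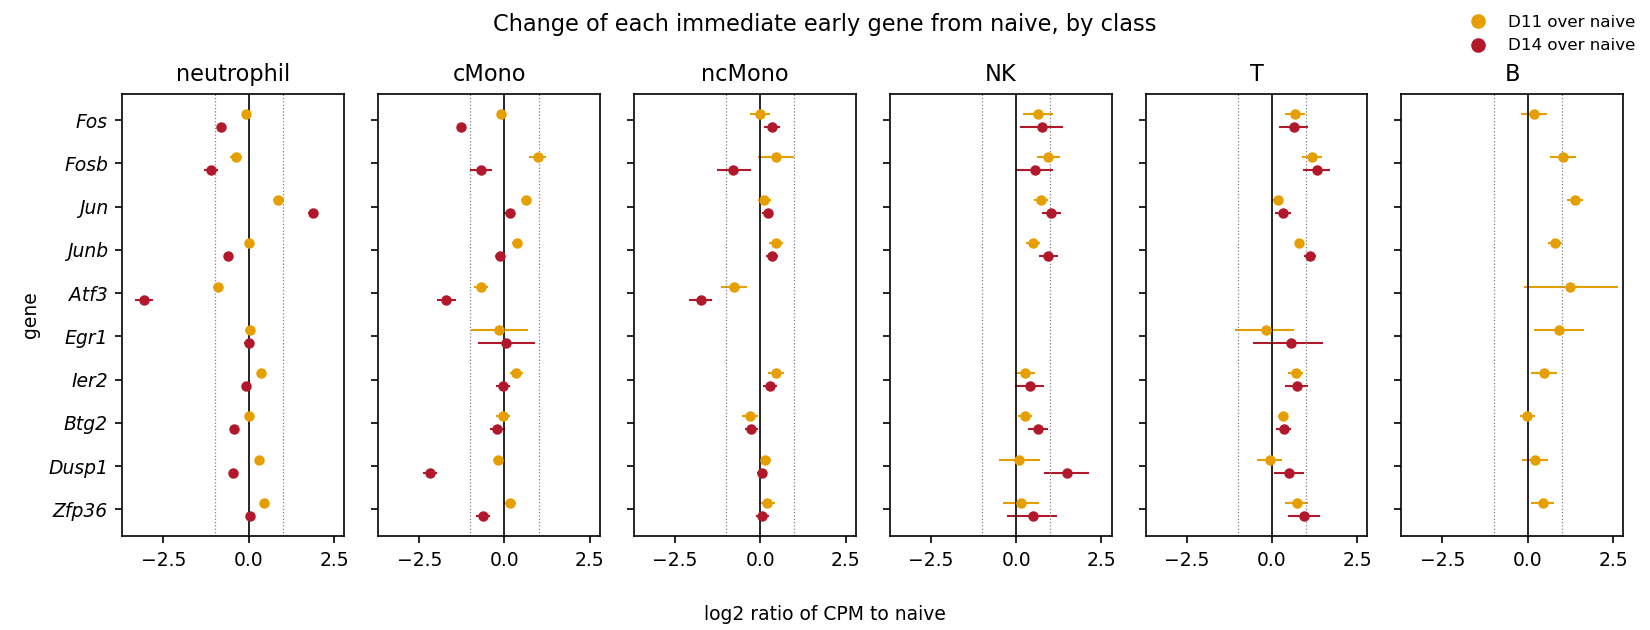
Log2 ratio of CPM to naive for each gene (rows) in each class (panels) at D11 (orange) and D14 (red), with exact 95% counting intervals; dotted lines mark 2-fold, pairs with fewer than 20 UMIs in all or with 0 UMIs are not drawn, and B cells have D11 only. Atf3 lies left of the 2-fold line at D14 in the 3 myeloid classes, Dusp1 and Fos do so in cMonos, and the points of T and NK cells at D14 all lie right of 0.

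Pro-B cells had the lowest sum of the nucleated classes, 413 CPM at D11 and 575 CPM at D14, a D14 over D11 log2 ratio of 0.48 (0.39 to 0.56). *Jun* was their leading member at 142 and 219 CPM (0.63, 0.49 to 0.77). *Btg2* read 17.4 and 44.8 CPM (1.37, 0.97 to 1.79) and *Atf3* 3.86 and 21.2 CPM (2.46, 1.64 to 3.42, on 12 and 502 UMIs), the opposite course to that of *Atf3* in myeloid cells. *Dusp1* read 3.53 and 6.62 CPM (0.90, 0.03 to 1.94, on 11 and 157 UMIs), below every leukocyte class. These cells were also the deepest, with medians of 34173 and 32633 UMIs.

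The members were also counted per cell. With every cell reduced at random to 1000 UMIs, the share of cells with UMIs of at least 3 of the 10 genes was 89.7%, 88.6% and 75.6% in neutrophils, 40.7%, 54.0% and 31.3% in cMonos, 17.4%, 34.1% and 31.7% in ncMonos, 5.03%, 11.6% and 23.6% in NK cells and 2.29%, 6.02% and 10.9% in T cells of naive, D11 and D14. Neutrophils and cMonos were lowest at D14, and NK and T cells were highest at D14. The share with any of the 10 in T cells was 49.0% (46.2 to 51.8), 54.5% (48.3 to 60.6) and 67.3% (57.3 to 76.3), and 94.2%, 94.4% and 100% before thinning. In NK cells it was 59.3% (52.1 to 66.2), 68.8% (61.7 to 75.3) and 70.9% (57.1 to 82.4), intervals that overlapped. In ncMonos it was 77.7% (69.2 to 84.8), 89.4% (83.9 to 93.5) and 90.4% (87.8 to 92.6), and 98.4%, 99.4% and 99.7% before thinning. The thinned ncMonos held a mean of 1.92, 2.50 and 2.50 member UMIs per 1000. Before thinning, the mean of per-cell CPM gave log2 ratios to naive of only 0.14 at D11 and 0.067 at D14. This random draw thus set naive ncMonos further below the leukemic libraries than the full counts did. The rise of the ncMono shares above is in part a feature of the draw. Thinning left out 20, 59 and 156 shallower neutrophils and at most 6 cells of any other of these classes.

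The 10% of cells with the most member UMIs held at most 25.4% of the member UMIs in neutrophils, where the deepest 10% held at most 29.2% of all UMIs. In T cells they held 26.3%, 28.8% and 25.0% in naive, D11 and D14, above the 17.7%, 22.1% and 19.5% of all UMIs in the deepest cells. In B cells they held 32.2% in naive and 33.0% at D11, against 20.6% and 23.0% of all UMIs. The top cells were chosen on the member UMIs themselves, so counting error alone raises their share where cells hold few of them. The 1269 naive T cells held 8199 member UMIs, against 38858 in the 1336 naive neutrophils. The contrast between these classes is thus partly built in. Erythroid barcodes, which should make little of this RNA, had any member UMI in 30.6%, 12.5% and 11.9% after thinning at medians of 9504, 11101.5 and 6111 UMIs, and at D11 90.9% of their member UMIs lay in 10% of the barcodes. The share of T cells with any member was above the erythroid share in each library. Hemoglobin made up 72.7%, 85.4% and 83.0% of erythroid UMIs in naive, D11 and D14, against 0.126%, 0.411% and 0.502% in T cells. Thinned erythroid barcodes thus held far fewer other UMIs than thinned T cells. The erythroid share is therefore no measure of background for T cells, and a comparison at equal numbers of other UMIs was not made.

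**Figure D5:**
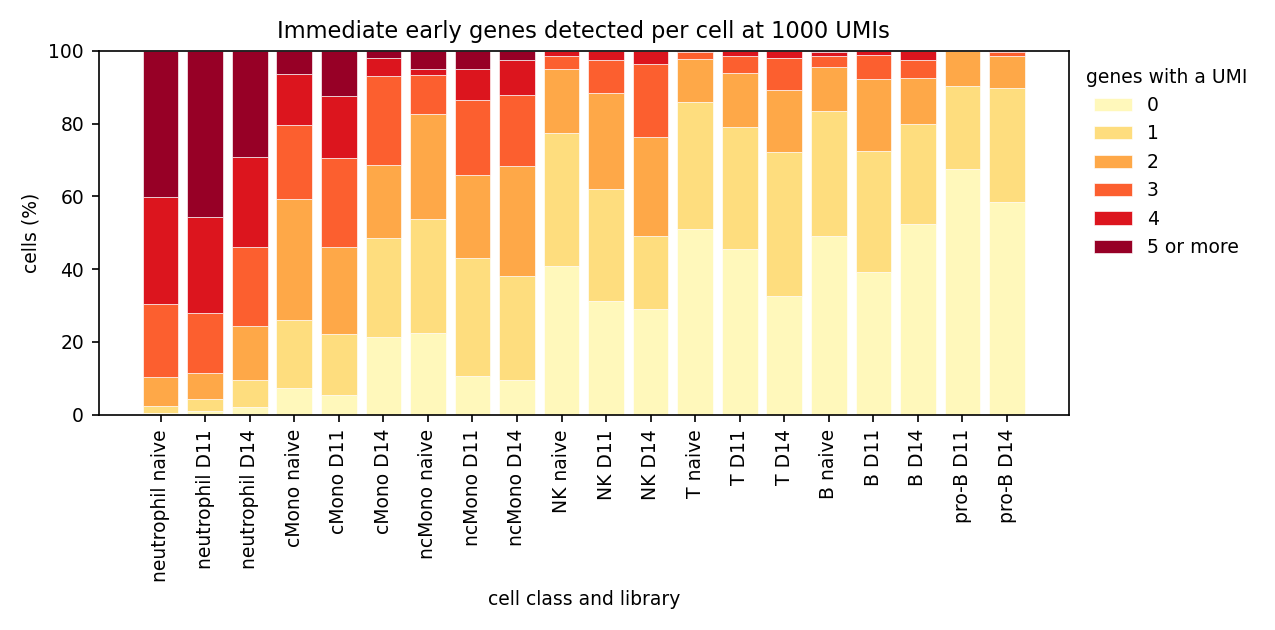
Percentage of cells of each class and library with UMIs of 0, 1, 2, 3, 4 or 5 or more of the 10 genes after thinning to 1000 UMIs per cell. The share with 3 or more grows from 2.29% to 10.9% in T cells and from 5.03% to 23.6% in NK cells between naive and D14.

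Related lists place these genes beside their pathway. Of 33 other immediate early genes, 20 passed the level minimum in ncMonos and 3 were past 2-fold higher and 0 lower at D14 (median log2 ratio 0.24 against 0.02 over all genes), led by *Socs3*, a cytokine feedback inhibitor, at 50.9, 116 and 159 CPM, *Zfp36l1*, a relative of *Zfp36*, at 150, 272 and 358 CPM, and *Pim1*, a kinase, at 171, 347 and 399 CPM. In cMonos 0 of 18 were higher and 3 lower (median -0.39 against 0.02), namely *Dusp6* (158, 125 and 68.1 CPM), a further MAP kinase phosphatase, *Jund* (400, 332 and 181 CPM) and *Klf10* (147, 76.6 and 66.8 CPM). In neutrophils 2 of 21 were higher, *Zfp36l1* (41.3, 44.0 and 109 CPM) and *Ier3* (120, 279 and 305 CPM), and 2 lower (median -0.24 against -0.20), *Klf10* (181, 84.0 and 52.9 CPM) and, named after its values were seen, *Dusp6* (145, 119 and 70.0 CPM). In T cells 1 of 13 was higher, the stress gene *Gadd45b* (26.6, 70.0 and 100.1 CPM), and 0 lower (median 0.21 against 0.08). In NK cells 0 of 14 passed 2-fold either way (median 0.19 against 0.02). Of all genes, 3.26% were past 2-fold higher and 1.96% lower at D14 in ncMonos, and 2.96% and 3.33% in cMonos. These shares were 6.41% and 7.84% in neutrophils, 4.5% and 1.02% in T cells, and 1.96% and 1.33% in NK cells. *Gadd45b* in T cells reached the minimum of 50 CPM only through D11 and D14, and *Zfp36l1* in neutrophils only through D14, where they were high. Their places in these counts are no support for a difference.

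Heat shock genes answer to protein damage and warmth. *Hspa1a* and *Hspa1b*, the inducible HSP70 genes, which are near identical and are given as a sum, were higher at D14 in every class, also where the members were lower. They read 14.2, 368 and 1252 CPM in ncMonos, 21.1, 109 and 441 CPM in cMonos, 9.71, 29.7 and 132 CPM in neutrophils, 2.18, 19.0 and 175 CPM in T cells and 2.51, 42.9 and 159 CPM in NK cells. Of 12 heat shock genes, 4 of 11 tested were past 2-fold higher in ncMonos at D14, 2 of 8 in cMonos, 1 of 5 in neutrophils, 2 of 8 in T cells and 2 of 8 in NK cells, where 3.26%, 2.96%, 6.41%, 4.5% and 1.96% of all genes were, and 0 were lower in any. *Hspa1a* and *Hspa1b* were among the 4 counted in ncMonos and were the 2 counted in cMonos. There they reached the minimum of 50 CPM only through D11 and D14, where they were high. Their places in these counts are no support for a difference. The median of the list over T cells was -0.08 against 0.08 over all genes, and above that of all genes in the other 4 classes. The part of heat or handling in the member levels was not tested.

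The genes of NF-κB feedback had a median above that of all genes at D14 in each class compared, while those of leukocyte activation did not follow one course. Of 12 NF-κB feedback genes, 3 of 10 were past 2-fold higher at D14 in ncMonos (*Tnfaip3*, 21.4, 67.9 and 115 CPM, *Tnip1*, 105, 167 and 240 CPM, and *Nfkbia*, 291, 598 and 640.5 CPM), 3 of 8 in NK cells (*Relb*, *Nfkbia* and *Birc3*) and 0 of 5 in cMonos, 0 of 4 in neutrophils and 0 of 6 in T cells, where 3.26%, 1.96%, 2.96%, 6.41% and 4.5% of all genes were. Their median log2 ratios were 0.34, 0.51, 0.22, 0.36 and 0.63 in the same order, against 0.02, 0.02, 0.02, -0.20 and 0.08 over all genes, and all 6 tested in T cells were above 0. Of 16 activation genes, 5 were tested in neutrophils and 2 were lower at D14 (7.84% of all genes were; median -0.83 against -0.20), *Il1b*, the cytokine IL-1β (4012, 3769 and 1819 CPM), and *Ptgs2*, cyclooxygenase 2 (63.2, 64.6 and 28.8 CPM). In ncMonos *Il1b* went the other way, at 205, 353 and 660 CPM, the 1 of 3 tested that was higher (3.26% of all genes; median -0.60 against 0.02). *Il2ra*, the IL-2 receptor α chain, was the 1 of 2 that was higher in T cells, at 31.2, 57.1 and 76.2 CPM (4.5% of all genes; median 0.69 against 0.08). Of 13 upstream kinases and promoter factors, 0 of 9 passed 2-fold in ncMonos, 0 of 7 in cMonos, 0 of 8 in neutrophils and 0 of 9 in NK cells at D14, and 1 of 8 did in T cells, *Mapkapk2*, the kinase downstream of p38 (38.6, 60.7 and 87.0 CPM), where 4.5% of all genes were higher. The medians of this list were 0.18, 0.06, -0.15, -0.06 and 0.34 in ncMonos, cMonos, neutrophils, NK cells and T cells. In ncMonos *Tnfaip3*, and in T cells *Il2ra* and *Mapkapk2*, reached the level minimum only through D11 and D14, where they were high. In neutrophils *Ptgs2* reached it only through naive and D11, where it was high. Their places in these counts are no support for a difference.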

How the data were processed

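PB leukocytes of naive, D11 and D14 mice were profiled with 10x Genomics 3′ v3 reagents, 1 library per condition. The authors deposited the Cell Ranger matrices of raw UMI counts per gene and barcode. The submitters' processing notes name Cell Ranger 7.1.0 and mm10, while the matrix headers name Cell Ranger 5.0.1. No cell annotation was used. Total UMIs were 30362408, 57640396 and 65861863.

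Barcodes with 200 or more genes and no more than 10% mitochondrial UMIs were gated with fixed marker lists (at least 3 of 6 to 12 markers). A barcode that passed several gates went to the one with at least 5 times the marker UMIs of the next, and otherwise to none (3.11% to 4.59%). Within each library the UMIs of a class were summed and scaled to CPM. Levels have exact Poisson intervals, ratios exact conditional binomial intervals and shares Clopper-Pearson intervals, all at 95% and for counting error only. A gene entered the 2-fold counts with a mean of at least 50 CPM over libraries with at least 50 cells, with 1 CPM added. Classes under 50 cells gave no ratio. Shares were taken after thinning to 1000 UMIs, with 500 and 2000 UMIs as alternatives. Profiles used log2(CPM + 10). Doublets were kept, and removal by Scrublet was an alternative.

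The members and lists were chosen with earlier results of these data known. The text names all 10 members, the 3 genes of each other list with the largest D14 over naive ratio in a class above the minimum, and the 10 genes outside the lists most correlated with the member mean. Python 3.11.15, numpy 2.4.6, scipy 1.17.1, pandas 2.3.3, scanpy 1.11.5, matplotlib and, for TMM factors only, edgeR 4.0.16 (R 4.3.3) were used, and the functions were tested on simulated data.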

Additional observations from a re-analysis of the deposited data

Results flagged for a closer look

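Some members and the sum of all 10 had opposite courses in 2 classes between naive and D14, each on 1 library per condition, and these differences were not tested. *Dusp1* was past 2-fold higher in NK cells and past 2-fold lower in cMonos, a difference of 3.69 between the log2 ratios. In NK cells it reached the level minimum only through D14, where it was high, on 33 UMIs. *Fosb* was past 2-fold higher in T cells and lower in neutrophils, a difference of 2.42, although in mature neutrophils alone it was not past 2-fold, and in T cells it reached the level minimum only through D11 and D14.

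The summed log2 ratio of T cells exceeded that of cMonos by 1.42 and that of neutrophils by 1.12. For NK cells these differences were 1.53 and 1.23. For ncMonos, whose own ratio changed sign under 1 alternative, they were 0.80 and 0.50.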

How the results depend on the processing

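No paired analysis was possible because each condition had 1 library. The summed log2 ratio to naive was recomputed for 11 combinations of class and time, and the number of members past 2-fold for both directions of each. Of the 11 sums, 10 kept their sign under all alternatives run, which did not include leaving out a library, and that of ncMonos at D14 became -0.0026 when barcodes of several gates went to the largest marker sum, an alternative chosen after seeing the data. Strict barcode filters, gates of at least 4 markers and the hemoglobin limit left all 11 sums within their counting intervals, and Scrublet removal moved only those of neutrophils, to 0.15 at D11 and -0.39 at D14.

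TMM factors shifted all log2 ratios of a class by at least 0.1 in ncMonos at D14 (0.22), neutrophils (0.16 and 0.20 at D11 and D14) and T cells (-0.12 and -0.14). The sums were then 0.23 and 0.29 in ncMonos, -0.81 in cMonos at D14, 0.29 and -0.23 in neutrophils, and 0.39 and 0.55 in T cells. Members past 2-fold were then 1 higher in cMonos and 1 in neutrophils at D11, 1 lower in neutrophils at D14, 1 higher in B cells, 1 in T cells at D14 and 0 in NK cells at D14, where *Dusp1*, with a log2 ratio of 1.38, was under the level minimum. Without ribosomal protein, mitochondrial and hemoglobin genes the T cell sums were 0.43 and 0.59, and 1 member was higher in NK cells at D14. With the mean of per-cell CPM the sums were 0.17 in cMonos at D11, 0.22 and -0.32 in neutrophils and 0.81 in T cells at D14, with 1 member higher in cMonos at D11, 1 lower in neutrophils at D14 and 1 higher in B cells.

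Leaving out barcodes of several gates gave 0.21 and -0.14 in neutrophils with 1 member lower at D14, and no value for cMonos at D14, of which 22 cells were left. Giving them to the largest marker sum gave 0.26 in ncMonos at D11, 0.056 and -0.79 in cMonos and 0.15 in neutrophils at D11, with 1 member higher in cMonos at D11, 1 lower in neutrophils and 1 higher in NK cells at D14. Mature neutrophils alone, also chosen after seeing the data, gave 0.25 and -0.11 with 1 member lower at D14. The hemoglobin limit left 1 member higher in B cells. Without a level minimum 1 member was higher in ncMonos at D11 and 1 lower in NK cells at D14. At 1.5-fold, 1 member was lower in ncMonos at D11, 2 were higher and 1 lower in cMonos at D11, 5 lower in cMonos at D14, 1 higher and 1 lower in neutrophils at D11, 4 lower at D14, 4 higher in T cells at each time, and 3 and 5 higher in NK cells. The share of all genes past the fold was computed under the main setting only. Member counts under the alternatives have no such share beside them and cannot be read as a result about the members. The causes were not tested. Thinning to 500 or 2000 UMIs moved 33 of 36 shares of cells with a member UMI out of their counting interval at 1000 UMIs. Such a share falls with fewer UMIs per cell and rises with more, so these moves were built in. They do not tell whether the order of classes or libraries held.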
